A study of Homo sapiens with 8 samples.

Results

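The genes described here were near-silent in SUDHL-4 cells under DMSO and were detected once cells that overexpress FDX1 had received elesclomol (ES). SUDHL-4 is an established human line of diffuse large B-cell lymphoma (DLBCL). Members were chosen by measured values: a mean below 0.1 FPKM over the 4 DMSO libraries and at least 0.4 FPKM in both libraries of FDX1-overexpressing (FDX1-OE) cells under ES. FPKM are reads divided by gene length and by the library total, so levels can be set side by side between genes. Interferon, chemokine, TRIM and histone symbols were left out by 10 symbol starts, which removed 6 genes that otherwise passed (CCL1, CCL25, CXCL8, H2AC15, H2BC21 and TRIM31). The rule kept 73 of the 15597 listed genes, or 1.62% of the 4503 genes below the DMSO limit. The remaining 4430 are called the other near-silent genes below.

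The study asked how FDX1 overexpression alters gene expression under ES. Its 4 groups were FDX1-OE cells with 5 nM ES, control cells with 5 nM ES, FDX1-OE cells with DMSO and control cells with DMSO, all for 48 h and with 2 libraries each. Control cells are labelled WT. The sources used here do not give the expression construct. Nor do they say whether control cells carry an empty vector, or whether the FDX1-OE cells are 1 clone or a pool. No label states that the libraries of a group are separate cultures. The p-values therefore measure only the spread between these libraries.

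Ferredoxin 1, the product of FDX1, carries electrons in mitochondria through its iron-sulfur cluster and is needed for protein lipoylation. ES is a copper ionophore, a small molecule that carries copper into cells, and FDX1 is known as one of the proteins its toxicity depends on. Genes of other lineages are usually silent in a B-cell line because their promoters are not engaged by the transcription factors present or are packed in closed chromatin. Interferon-stimulated genes are a class that can stay near-silent until interferon signalling assembles STAT and IRF factors on a short element of their promoters, the interferon-stimulated response element (ISRE).

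Library totals lay between 33435438 and 35883528 reads. For a gene of 1 kilobase, 3 reads were worth 0.0836 to 0.0897 FPKM, depending on the library. FDX1 had 82.5 and 84.8 FPKM in FDX1-OE ES, 21.3 and 21.4 FPKM in control ES, 72.4 and 69.9 FPKM in FDX1-OE DMSO, and 25.6 and 22.2 FPKM in control DMSO, so the higher levels lay in the libraries labelled FDX1-OE. All 8 B-cell markers were listed, with summed levels of 1790 FPKM in FDX1-OE ES, 1740 to 1780 FPKM in control ES, 1440 to 1460 FPKM in FDX1-OE DMSO and 1530 to 1550 FPKM in control DMSO. The 6 epithelial markers summed to between 0.352 and 0.77 FPKM in FDX1-OE ES, 0.0613 and 0.0859 FPKM in control ES, 0 and 0.015 FPKM in FDX1-OE DMSO, and 0 FPKM in control DMSO. The 5 listed myeloid markers of 8 summed to 0.275 to 0.439 FPKM in FDX1-OE ES, 0.393 to 0.644 FPKM in control ES, 0.124 to 0.132 FPKM in FDX1-OE DMSO and 0.205 to 0.227 FPKM in control DMSO. The 5 listed T and NK cell markers of 8 summed to 4.1 to 8.48 FPKM over the 8 libraries, nearly all of it CD3E, and the 6 of fibroblasts and endothelium to 0.482 to 1.48 FPKM, mostly PECAM1. The 3 listed erythroid markers of 5, HBB, HBA1 and HBA2, had 0.87, 0.0498 and 0.15 FPKM in FDX1-OE ES 1 and 0 in the other libraries. Their read numbers are not known, since a gene seen in a single library gives no second value to fix them. No listed marker was at 0 in every library. These sums were higher under ES than under DMSO for the B-cell, epithelial, myeloid, and fibroblast and endothelial lists, and their part in the values of the 73 genes was not tested. The number of listed genes at 0 was 1593 and 1558 in FDX1-OE ES, 2188 and 2303 in control ES, 2642 and 2664 in FDX1-OE DMSO, and 2720 and 2601 in control DMSO. In RNA from whole cultures, fewer cells of a type and less RNA per cell cannot be told apart, so a low level may stand for a few cells or for all of them.

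The median level of the 73 genes was 0.714 and 0.758 FPKM in FDX1-OE ES, 0.235 and 0.189 FPKM in control ES, 0.0537 and 0.0509 FPKM in FDX1-OE DMSO, and 0.0338 and 0.0495 FPKM in control DMSO. The FDX1-OE ES and DMSO values follow from the rule, while the control ES libraries were not used by it and stood between them. Their summed level showed the same order, with 62.7 and 62.6 FPKM in FDX1-OE ES, 20.9 and 17.2 FPKM in control ES, 4.55 and 4.62 FPKM in FDX1-OE DMSO, and 3.21 and 4.15 FPKM in control DMSO. The other near-silent genes summed to 193 and 192 FPKM in FDX1-OE ES, 128 and 116 FPKM in control ES, 63.2 and 63.3 FPKM in FDX1-OE DMSO, and 60.6 and 64.1 FPKM in control DMSO. Among those other genes the share listed at 0 was 35.2% and 34.6% in FDX1-OE ES, 48.5% and 51.1% in control ES, 58.5% and 58.7% in FDX1-OE DMSO, and 60.1% and 57.4% in control DMSO. Behind the members' levels stood a median of 81 and 84 reads a gene in FDX1-OE ES, 22 and 19 in control ES, 5 and 5 in FDX1-OE DMSO, and 4 and 5 in control DMSO. With so few reads under DMSO, the size of a fold over DMSO cannot be read for most of these genes, and levels are given instead.

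**Figure D1:**
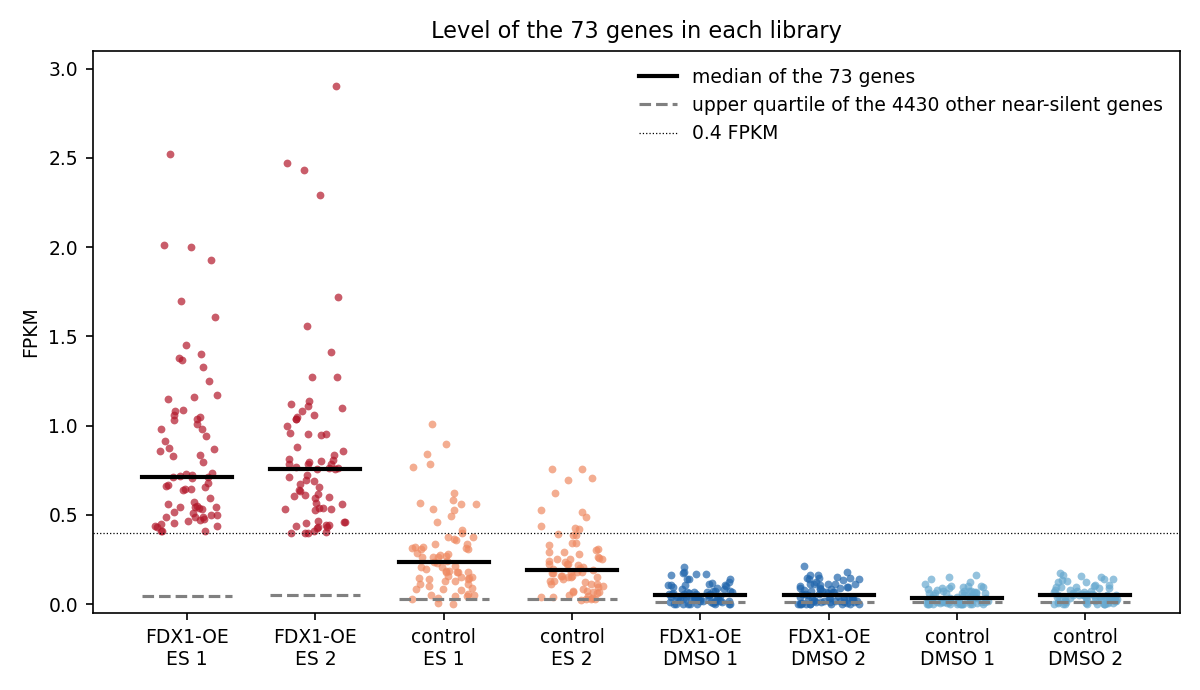
Level of the 73 genes in each of the 8 libraries, in FPKM on a linear axis; each point is 1 gene, spread sideways at random, the black bar is the median of the 73 genes and the dashed grey bar the upper quartile of the 4430 other near-silent genes. The FDX1-OE ES points lie at or above 0.4 FPKM by the rule, the medians of control ES are 0.235 and 0.189 FPKM, and the DMSO medians lie between 0.0338 and 0.0537 FPKM.

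Even where highest, the members were low. Their mean in FDX1-OE ES ran from 0.41 to 2.5 FPKM with a median of 0.735 FPKM, levels that exceed those of 32.2%, 45% and 35.5% of all listed genes for the lowest, the highest and the median member. A mean of at least 1 FPKM in FDX1-OE ES was found for 20 members. Their lengths ran from 563 to 13306 bases with a median of 3090 bases. The limits of the rule cut through a continuum. Just inside the DMSO limit lay MMP25 and DCST2 with DMSO means of 0.099 and 0.0988 FPKM, and just outside it LAG3, SYNGR4 and ZBP1 with 0.101, 0.101 and 0.103 FPKM. ZBP1, a sensor of Z-form nucleic acids, stood at 3.939 and 4.244 FPKM in FDX1-OE ES and 1.98 and 1.3 FPKM in control ES, above every member in each ES library. Just inside the ES limit lay HERC6, PALM and ERICH3, whose lower FDX1-OE ES library had 0.4003, 0.4003 and 0.401 FPKM. Just outside it lay BGLAP with 0.3978 FPKM, MYO5C with 0.3913 FPKM, and CREB3L3, whose lower library rounds to 0.4 FPKM.

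Control cells under ES gave the readout that the rule left free. Both control ES libraries lay above all 4 DMSO libraries for 57 of the 73 genes (78.1%), against 14.6% of the other near-silent genes and 31.1% of all genes. Both reached 0.4 FPKM for 8 members, NMI, PDLIM1, C1QL1, APOL1, DOK4, LTC4S, BEST1 and SIDT1, against 0.0226% of the other near-silent genes, where GDF15 was the single case. Both lay below both FDX1-OE ES libraries for 70 of the 73 genes, the exceptions being DOK4, LTC4S and C8orf89, against 22.7% of the other near-silent genes and 32.3% of all genes. The FDX1-OE ES side of that count was set high by the rule, as was its place above all 4 DMSO libraries, which held for all 73 genes. The other near-silent genes differ from the members in ways that bear on all these shares. At 0 in control ES 1 and 2 were 48.5% and 51.1% of them, and a gene at 0 cannot lie above DMSO. By the rule they also did not reach 0.4 FPKM in both FDX1-OE ES libraries. The control ES mean was a median of 28.9% of the FDX1-OE ES mean, with quartiles of 16.9% and 43.4% and a range from 3.55% to 88.1%. The difference between FDX1-OE and control cells under ES was not tested, since its FDX1-OE side chose the members. Between the control ES libraries, the first was the higher one for 48 members (65.8%), against 49.4% of all genes.

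ES against DMSO in control cells was tested with limma on log2(FPKM + 1) over all 15597 genes and 8 libraries, with Benjamini-Hochberg adjustment. At an adjusted p below 0.05, 35 of the 73 genes (47.9%) rose and 0 fell (unadjusted p below 0.05 for 48 higher members), against 13.7% of all genes and 2.44% of the other near-silent genes that rose. The members' median difference was 0.21 on the log2(FPKM + 1) scale, against 0.017 over all genes and 0.000338 over the other near-silent genes. The DMSO side of this contrast was held low by the rule, for the members and for the other near-silent genes alike. The spread in this fit was also estimated partly from the DMSO and FDX1-OE ES libraries that the rule used. The adjusted p-values are therefore not free of the rule. Unlike the members, the other near-silent genes did not reach 0.4 FPKM in both FDX1-OE ES libraries, and many were at 0. Over all genes 2144 rose and 971 fell, a split that rescaling by median-of-ratios factors turned to 1675 and 1310, with 34 members higher. The count rested on few libraries: it was 10 without control DMSO 1, 14 without control DMSO 2, 16 without control ES 1, and 23 without either one of the FDX1-OE DMSO libraries. A fit of the 4 control libraries alone called 0 members and 0 genes of all, with 51 members at an unadjusted p below 0.05. With each of the 8 libraries left out in turn, 9 of the 35 genes kept their call every time, among them APOL1, BEST1, C1QL1, CCDC103, HERC6, LYRM9, PALM and SIDT1, and the other 26 lost it at least in 1 of those fits.

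**Figure D2:**
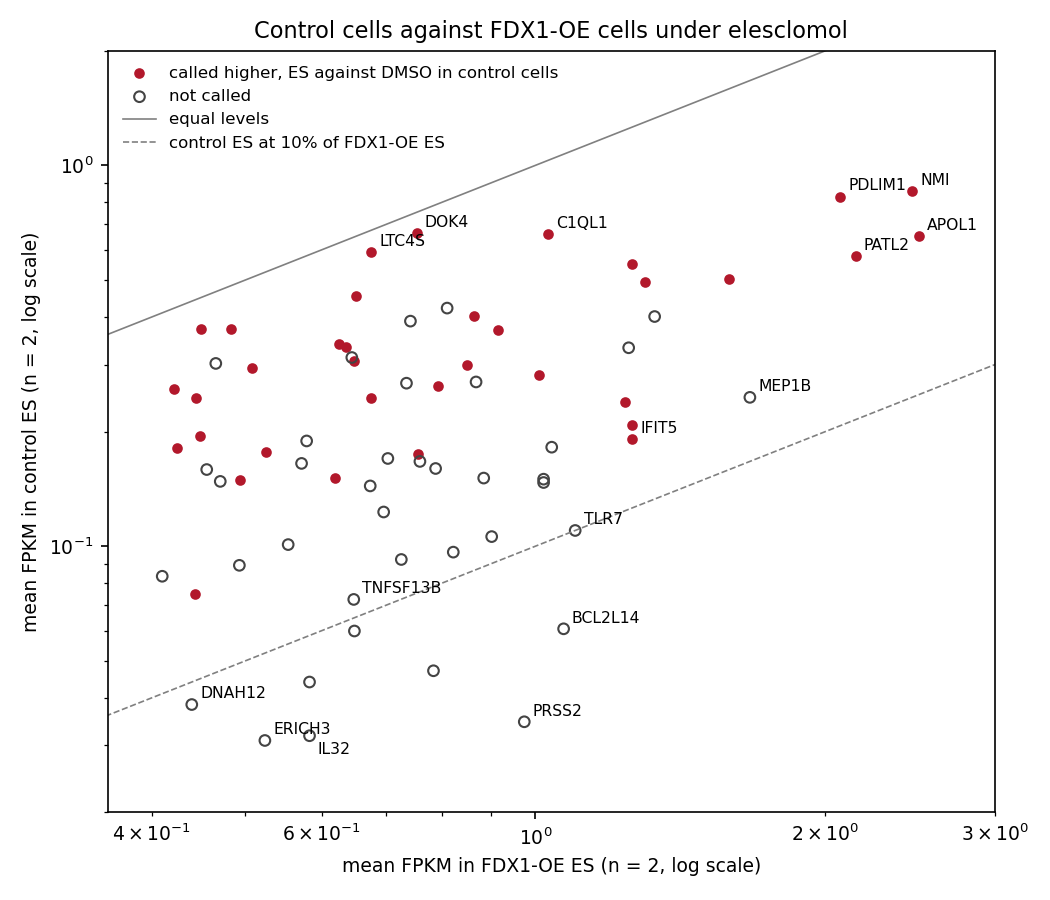
Mean FPKM of each of the 73 genes in control ES (vertical) against FDX1-OE ES (horizontal), n = 2 libraries each, both axes on a log scale; filled points were called higher in ES than in DMSO in control cells and open points were not. All points lie below the line of equal levels, 14 at or above 50% of the FDX1-OE ES mean (DOK4 and LTC4S highest) and 8 below the dashed line at 10% (PRSS2 lowest).

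The 73 genes were sorted by hand into 8 classes from what is generally known of each gene and its tissue, with the values in view and without an expression atlas. The largest classes were leukocyte genes and genes of signalling, metabolism and transport, with 11 members each. Neural genes numbered 10, interferon-linked genes 9, genes of liver, gut, pancreas, kidney, eye and muscle 9, genes of adhesion, cytoskeleton and epithelium 8, genes of cilium and sperm 6, and less studied or other genes 9. The class counts of genes that rose in control cells, given below, stand against the 13.7% of all genes that rose, and with so few genes in a class no order of the classes is read from them. The median FDX1-OE ES level ran from 0.489 FPKM for cilium and sperm genes to 1.24 FPKM for the liver, gut, pancreas, kidney, eye and muscle genes, and the median control ES level from 0.0966 FPKM for cilium and sperm genes to 0.282 FPKM for the less studied ones.

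Of the 9 interferon-linked genes 6 rose in control cells under ES, against 13.7% of all genes, and both control ES libraries lay above all DMSO libraries for 8. They code for antiviral effectors (IFIT5, DDX60, GBP4, PARP12, HERC6), a serum protein that lyses trypanosomes (APOL1), a partner of STAT proteins (NMI), an RNA receptor (TLR7) and a B-cell survival cytokine (TNFSF13B). The promoters of 3 effectors are shown as those that both rose in control cells and hold the ISRE core letters within 100 bases before the gene's start. GBP4 also holds the letters there and did not pass the test. TNFSF13B holds them 71 bases before a listed start and did not pass either. NMI rose with the letters 162 bases before its start, while HERC6 rose and has no match in its window. APOL1 and TLR7 had no promoter window and were not searched. Stretches run from 100 bases before to 50 bases after the start in the RefSeq promoter table (GRCh38.p14), on the gene's strand, and capitals mark matches of GAAANNGAA on either strand.
IFIT5, chr10:89414468-89414617, plus strand: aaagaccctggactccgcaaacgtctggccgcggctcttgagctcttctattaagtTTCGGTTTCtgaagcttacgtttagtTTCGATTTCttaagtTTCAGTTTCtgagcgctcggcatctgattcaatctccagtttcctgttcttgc
DDX60, chr4:168318703-168318852, minus strand: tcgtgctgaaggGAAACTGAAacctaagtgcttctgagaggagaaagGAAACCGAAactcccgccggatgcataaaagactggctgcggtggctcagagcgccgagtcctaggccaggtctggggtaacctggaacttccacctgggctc
PARP12, chr7:140062902-140063051, minus strand: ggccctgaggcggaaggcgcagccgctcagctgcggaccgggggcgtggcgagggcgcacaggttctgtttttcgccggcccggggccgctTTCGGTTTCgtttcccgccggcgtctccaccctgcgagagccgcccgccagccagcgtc
In IFIT5 the letters began 44, 18 and 3 bases before the start, the closest one running across it. DDX60 held them 88 and 53 bases before the start, in the other orientation, and PARP12 held them 9 bases before it.

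IFIT5, which binds the ends of foreign RNA, had 1.4 and 1.11 FPKM in FDX1-OE ES, 0.156 and 0.227 FPKM in control ES, 0.0352 and 0.0223 FPKM in FDX1-OE DMSO, and 0 and 0.00692 FPKM in control DMSO. Both control ES libraries lay above all DMSO libraries and below FDX1-OE ES, and IFIT5 rose in control cells (log2(FPKM + 1) difference 0.25 ± 0.06 SE, limma adjusted p = 0.0442). For IFIT5, limma fits without 1 library gave adjusted p of 0.0248 to 0.18. DDX60, an antiviral helicase, had 0.441 and 0.446 FPKM in FDX1-OE ES, 0.0856 and 0.0641 FPKM in control ES, 0.0169 and 0.0355 FPKM in FDX1-OE DMSO, and 0.0313 and 0.0303 FPKM in control DMSO. PARP12, an ADP-ribosyltransferase, had 0.714 and 0.635 FPKM in FDX1-OE ES, 0.211 and 0.28 FPKM in control ES, 0.0207 and 0.0291 FPKM in FDX1-OE DMSO, and 0.028 and 0.0611 FPKM in control DMSO. Both rose in control cells by small steps on this scale, DDX60 by 0.06 ± 0.02 and PARP12 by 0.25 ± 0.04 (SE; limma, adjusted p = 0.0454 and 0.00977). Fits without 1 library gave limma's adjusted p of 0.0492 to 0.149 for DDX60 and 0.0254 to 0.0583 for PARP12.

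APOL1, apolipoprotein L1, the serum protein that lyses trypanosomes, was the member with the highest mean in FDX1-OE ES. It had 2.52 and 2.47 FPKM in FDX1-OE ES, 0.783 and 0.519 FPKM in control ES, 0.0877 and 0.166 FPKM in FDX1-OE DMSO, and 0.0267 and 0.0516 FPKM in control DMSO. Both control ES libraries lay above all DMSO libraries and below FDX1-OE ES, and APOL1 rose in control cells (log2(FPKM + 1) difference 0.66 ± 0.08 SE, limma adjusted p = 0.0067). For APOL1, limma fits without 1 library gave adjusted p of 0.0129 to 0.0453. NMI, an interferon-induced partner of MYC and STAT proteins, had 2.01 and 2.9 FPKM in FDX1-OE ES, 1.01 and 0.705 FPKM in control ES, 0.139 and 0.147 FPKM in FDX1-OE DMSO, and 0.0177 and 0.0171 FPKM in control DMSO. It had the highest control ES mean of the 73 genes and rose there (log2(FPKM + 1) difference 0.86 ± 0.13 SE, limma adjusted p = 0.0116). For NMI, limma fits without 1 library gave adjusted p of 0.0181 to 0.0651. For both genes the FDX1-OE DMSO libraries also lay above the control DMSO libraries, at levels resting on few reads.

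HERC6, of the HECT ubiquitin ligase family, sat at the edge of the rule with 0.488 and 0.4 FPKM in FDX1-OE ES, 0.264 and 0.226 FPKM in control ES, and 0.0138 to 0.0859 FPKM over the 4 DMSO libraries. Its control level was 55.1% of the FDX1-OE ES level, the highest share of the class, and it rose in control cells (log2(FPKM + 1) difference 0.28 ± 0.04 SE, limma adjusted p = 0.00754). The remaining 3 interferon-linked genes were not called. GBP4, a guanylate-binding GTPase, had 1.04 and 0.757 FPKM in FDX1-OE ES, 0.0875 and 0.125 FPKM in control ES, and 0.00469 to 0.151 FPKM over the 4 DMSO libraries, so its control ES libraries overlapped DMSO. TNFSF13B, the cytokine BAFF, had 0.658 and 0.638 FPKM in FDX1-OE ES, 0.101 and 0.0442 FPKM in control ES, and 0 to 0.0426 FPKM over the 4 DMSO libraries. TLR7, the endosomal receptor of single-stranded RNA, had 1.16 and 1.04 FPKM in FDX1-OE ES, 0.149 and 0.0707 FPKM in control ES, and 0 to 0.0397 FPKM over the 4 DMSO libraries. The last 2 of these stood at 11.2% and 10% of their FDX1-OE ES means in control ES.

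A list of 60 interferon-stimulated genes and guanylate-binding proteins puts these in context. Of its 56 listed genes 35 rose and 1 fell in control cells, with a median difference of 0.85 on the log2(FPKM + 1) scale against 0.017 over all genes. Most of that list was above the DMSO limit. Among its 21 near-silent genes 6 were members (28.6%), GBP4, IFIT5, HERC6, DDX60, APOL1 and TNFSF13B, against 1.62% of all near-silent genes. Membership was set by the FDX1-OE ES values, so this share is no free readout. In control cells 4 of the 21 rose, against 13.7% of all genes, and all were members (APOL1, DDX60, HERC6 and IFIT5). None of the other 10 lists of tissue or stress genes gave more than 1 member. IL32 came from 33 near-silent cytokine and interleukin receptor genes, CLEC7A from 27 myeloid genes, ESRP1 from 41 epithelial and skin genes, and OSGIN1 from 7 metal and oxidative stress genes. The lists of cancer-testis genes (30 near-silent), neural genes (30), stromal genes (32), liver, gut, kidney and muscle genes (24), T and NK genes (17) and stress and p53 targets (7) gave 0 members. In control cells the numbers of listed genes that rose and fell were 7 and 0 of 45 for cytokines, 1 and 0 of 39 for myeloid genes, 2 and 0 of 48 for epithelial genes, and 4 and 1 of 23 for metal and oxidative stress. They were 4 and 0 of 42 for cancer-testis genes, 2 and 1 of 37 for neural genes, and 4 and 0 of 39 for stromal genes. For liver, gut, kidney and muscle genes they were 3 and 0 of 34, for T and NK genes 2 and 2 of 29, and for stress and p53 targets 10 and 0 of 38. The median differences of these 10 lists lay between 0 and 0.067 on the log2(FPKM + 1) scale. In all, 10 of the 73 genes stood on any of the 11 lists, so most of the tissue genes described below were not among the markers of those tissues listed here.

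Promoter windows of 300 bases, from 250 before to 50 after a start, were used for 53 of the 73 genes, 70 windows in all. Windows on chromosome 8, where 4 of the placed members lie, were left out of every set compared here. The ISRE core GAAANNGAA stood in 20% of these windows, against 7.15% of 4810 windows of other near-silent genes and 7.04% of 17954 windows of all listed genes. The 12 genes with it were BCL2L14, DDX60, FCER2, GBP4, GIMAP2, IFIT5, NMI, PARP12, PATL2, SIDT1, TAFA2 and TNFSF13B, where PATL2 and TNFSF13B each count with 2 overlapping windows. The AP-1 letters TGANTCA stood in 15.7% of the members' windows, against 8.11% and 5.85% of the other near-silent and of all listed genes. The NF-kB core GGGNNTTCC stood in 10%, against 6.55% and 7.6%, and the CRE letters TGACGTCA in 2.86%, against 1.39% and 2.48%. The letters TGCNCNC, searched for the metal response element, stood in 61.4% of the members' windows, 59.6% of those of other near-silent genes and 61.6% of all. Letters found in most windows of every set cannot tell whether the sets differ in metal response elements. The median number of CpG pairs was 11 in the members' windows, 13 in those of other near-silent genes and 23 in all. All motifs were read on both strands, and a match describes letters and not a bound site.

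**Figure D3:**
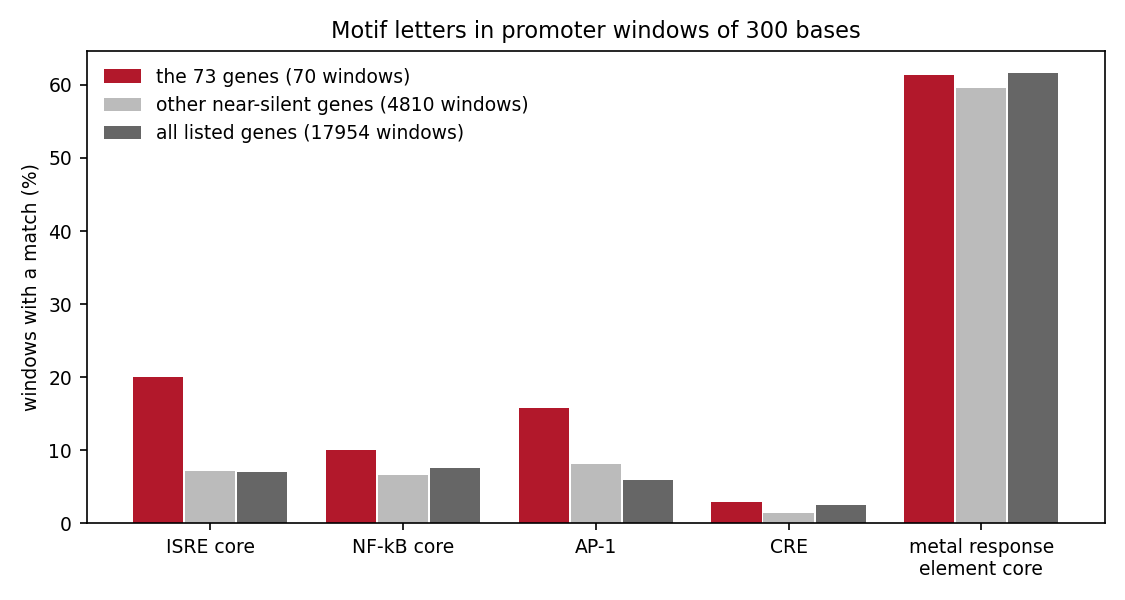
Percentage of 300-base promoter windows that hold each motif on either strand, for the 73 genes (70 windows, 53 genes), the other near-silent genes and all listed genes. The bar for the ISRE core is at 20% for the 73 genes and at 7.15% and 7.04% for the other sets. The bars labelled metal response element core, for the letters TGCNCNC, lie between 59.6% and 61.6% in all sets.

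SIDT1 and PATL2 carried the ISRE core letters although neither is on the interferon list. BCL2L14, FCER2, GIMAP2, NMI, PARP12 and TAFA2 carried them and are not on that list either. Of these, FCER2, NMI and PARP12 rose in control cells, and BCL2L14, GIMAP2 and TAFA2 were not called. The SIDT1 and PATL2 stretches are shown in the same way, as examples.
SIDT1, chr3:113532455-113532604, plus strand: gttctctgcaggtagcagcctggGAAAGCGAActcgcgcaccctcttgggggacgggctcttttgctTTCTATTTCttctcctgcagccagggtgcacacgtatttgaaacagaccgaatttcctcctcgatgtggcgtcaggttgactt
PATL2, chr15:44711274-44711423, minus strand: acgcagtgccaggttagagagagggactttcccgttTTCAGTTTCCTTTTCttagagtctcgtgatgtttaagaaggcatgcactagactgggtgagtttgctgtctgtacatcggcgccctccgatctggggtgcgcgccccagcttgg
In SIDT1 the letters began 77 and 33 bases before the start, in opposite orientations, and in PATL2 they began 64 and 58 bases before it as overlapping matches. The table lists other starts for PATL2. From one of these the same letters lie 4 and 10 bases after the start, and the window of another has no match. Whether the letters belong to PATL2 or to another gene at this place was not tested. SIDT1, a membrane protein of the SID1 family, had 1.33 and 1.27 FPKM in FDX1-OE ES, 0.458 and 0.53 FPKM in control ES, 0.0638 and 0.179 FPKM in FDX1-OE DMSO, and 0.0485 and 0.0887 FPKM in control DMSO. It rose in control cells (log2(FPKM + 1) difference 0.48 ± 0.06 SE, limma adjusted p = 0.00614), and its control ES libraries were close to each other and above all DMSO libraries. For SIDT1, limma fits without 1 library gave adjusted p of 0.0118 to 0.0423. PATL2, an RNA-binding protein known from oocytes, had 2 and 2.29 FPKM in FDX1-OE ES, 0.769 and 0.385 FPKM in control ES, 0.144 and 0.0434 FPKM in FDX1-OE DMSO, and 0.0732 and 0.132 FPKM in control DMSO. Its first control ES library was well above the other, both were above all DMSO libraries, and it rose there (log2(FPKM + 1) difference 0.51 ± 0.12 SE, limma adjusted p = 0.0394). For PATL2, limma fits without 1 library gave adjusted p of 0.0253 to 0.168.

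Leukocyte genes formed one of the largest classes, and 3 of its 11 members rose in control cells, against 13.7% of all genes. FCER2 encodes CD23, the low-affinity receptor of IgE on B cells. It had 1.38 and 1.14 FPKM in FDX1-OE ES, 0.34 and 0.76 FPKM in control ES, 0.119 and 0.0179 FPKM in FDX1-OE DMSO, and 0.0173 and 0.0334 FPKM in control DMSO. The control ES libraries lay apart but above all DMSO libraries, and FCER2 rose (log2(FPKM + 1) difference 0.58 ± 0.13 SE, limma adjusted p = 0.0335). For FCER2, limma fits without 1 library gave adjusted p of 0.0266 to 0.141. LTC4S, the enzyme that makes leukotriene C4, had 0.538 and 0.814 FPKM in FDX1-OE ES, 0.559 and 0.625 FPKM in control ES, 0.106 and 0 FPKM in FDX1-OE DMSO, and 0.0359 and 0.139 FPKM in control DMSO. Here the control ES libraries overlapped the FDX1-OE ES libraries, the control mean was 87.6% of the FDX1-OE ES mean, and LTC4S rose in control cells (log2(FPKM + 1) difference 0.55 ± 0.10 SE, limma adjusted p = 0.0152). For LTC4S, limma fits without 1 library gave adjusted p of 0.0263 to 0.0845. CHIT1, a chitinase secreted by activated macrophages, also rose and had 0.831 and 0.996 FPKM in FDX1-OE ES, 0.319 and 0.42 FPKM in control ES, and 0.0379 to 0.141 FPKM over the 4 DMSO libraries.

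GIMAP2, a GTPase of lymphocytes, had 1.61 and 1.04 FPKM in FDX1-OE ES, 0.414 and 0.388 FPKM in control ES, and 0.0386 to 0.0798 FPKM over the 4 DMSO libraries. Both control ES libraries lay above all DMSO libraries, yet GIMAP2 missed the call in control cells (log2(FPKM + 1) difference 0.40 ± 0.11 SE, limma adjusted p = 0.0528). CLEC7A, the fungal sensor dectin-1 of myeloid cells, had 1.05 and 0.722 FPKM in FDX1-OE ES, 0.152 and 0.15 FPKM in control ES, and 0.062 to 0.101 FPKM over the 4 DMSO libraries. Its control ES libraries were just above DMSO. The plasma-cell and NK-cell receptor SLAMF7 had 0.794 and 0.783 FPKM in FDX1-OE ES, 0.235 and 0.0845 FPKM in control ES, and 0.06 to 0.107 FPKM over the 4 DMSO libraries. The oxysterol receptor GPR183, which positions B cells, had 0.56 and 0.788 FPKM in FDX1-OE ES, 0.131 and 0.158 FPKM in control ES, and 0.0146 to 0.112 FPKM over the 4 DMSO libraries. In SLAMF7 1 control ES library lay within the DMSO range, while in GPR183 both were above it by a small margin. Overlap with DMSO was also seen for the collagen receptor OSCAR, the complement receptor C5AR1 and the leukocyte metalloproteinase MMP25, whose control ES levels of 0.114 to 0.216 FPKM reached into the DMSO range. IL32, a cytokine of T and NK cells, had 0.71 and 0.456 FPKM in FDX1-OE ES, 0.032 and 0.0316 FPKM in control ES, 0.0305 and 0 FPKM in FDX1-OE DMSO, and 0.124 and 0.15 FPKM in control DMSO. In IL32 the control ES libraries were below both control DMSO libraries, at 5.46% of the FDX1-OE ES mean, a difference that did not pass the test (log2(FPKM + 1) difference -0.14 ± 0.07 SE, limma adjusted p = 0.24).

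Among the 10 neural genes 5 rose in control cells, C1QL1, CACNA1A, PALM, NGFR and AP3B2. C1QL1, a secreted C1q-like protein of synapses, had 0.979 and 1.08 FPKM in FDX1-OE ES, 0.625 and 0.695 FPKM in control ES, 0.0186 and 0.0588 FPKM in FDX1-OE DMSO, and 0.0377 and 0.11 FPKM in control DMSO. The control ES libraries lay above all DMSO libraries and below FDX1-OE ES, and C1QL1 rose (log2(FPKM + 1) difference 0.63 ± 0.05 SE, limma adjusted p = 0.00273). For C1QL1, limma fits without 1 library gave adjusted p of 0.012 to 0.0266. PALM, the membrane protein paralemmin, had 0.5 and 0.4 FPKM in FDX1-OE ES, 0.397 and 0.344 FPKM in control ES, and 0.0406 to 0.106 FPKM over the 4 DMSO libraries, with its upper control library just under the lower FDX1-OE library. It rose in control cells (log2(FPKM + 1) difference 0.34 ± 0.04 SE, limma adjusted p = 0.00703), at 82.3% of the FDX1-OE ES mean.
NGFR, the p75 neurotrophin receptor, had 0.717 and 0.532 FPKM in FDX1-OE ES, 0.377 and 0.303 FPKM in control ES, and 0.0614 to 0.123 FPKM over the 4 DMSO libraries. AP3B2, the neuronal subunit of the AP-3 adaptor, had 0.861 and 0.838 FPKM in FDX1-OE ES, 0.308 and 0.292 FPKM in control ES, and 0.0281 to 0.144 FPKM over the 4 DMSO libraries. CACNA1A, the pore subunit of P/Q-type calcium channels, had 0.64 and 0.599 FPKM in FDX1-OE ES, 0.187 and 0.114 FPKM in control ES, and 0.0131 to 0.0785 FPKM over the 4 DMSO libraries. All 3 showed control ES libraries above every DMSO library and below both FDX1-OE ES libraries.
The other neural genes were not called. CHL1, an adhesion molecule of the L1 family, had 0.553 and 0.433 FPKM in FDX1-OE ES, 0.0807 and 0.0975 FPKM in control ES, and 0.0202 to 0.0377 FPKM over the 4 DMSO libraries. DPYSL4, of the CRMP family that acts in axon growth, had 0.705 and 0.593 FPKM in FDX1-OE ES, 0.047 and 0.0729 FPKM in control ES, and 0 to 0.0336 FPKM over the 4 DMSO libraries, at 9.24% of the FDX1-OE ES mean in control ES. Control ES levels of the carbonic anhydrase-related gene CA11 were 0.209 and 0.395 FPKM, above all DMSO libraries, while those of TAFA2 and of TAC3, the precursor of neurokinin B, overlapped DMSO. TAC3 shares 7.12% of its exon bases with MYO1A on the same strand, and MYO1A averaged 0.508 FPKM in FDX1-OE ES, 0.357 FPKM in control ES, 0.147 FPKM in FDX1-OE DMSO and 0.114 FPKM in control DMSO. Whether shared reads enter the TAC3 values was not tested.

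The 6 genes of cilium and sperm were low in control cells, with a median of 0.0966 FPKM, and 3 of them rose. Their products build or attach the axoneme, the microtubule core of motile cilia and sperm tails, or sit on the sperm membrane (DCST2). CFAP46, of the central apparatus of the axoneme, had 0.546 and 0.443 FPKM in FDX1-OE ES, 0.184 and 0.114 FPKM in control ES, 0 and 0.00362 FPKM in FDX1-OE DMSO, and 0 FPKM in both libraries of control DMSO, and rose in control cells (log2(FPKM + 1) difference 0.20 ± 0.04 SE, limma adjusted p = 0.0246). For CFAP46, limma fits without 1 library gave adjusted p of 0.0323 to 0.109. CCDC103, which attaches dynein arms, had 0.532 and 0.434 FPKM in FDX1-OE ES, 0.319 and 0.426 FPKM in control ES, and 0.0322 to 0.107 FPKM over the 4 DMSO libraries, rose in control cells and stood there at 77.1% of the FDX1-OE ES mean. CCDC103 shares 57.3% of its exon bases with GFAP, which averaged at most 0.0114 FPKM in any group, and 9.99% with EFTUD2, which averaged 49.7 FPKM in FDX1-OE ES, 57.4 FPKM in control ES, 62.5 FPKM in FDX1-OE DMSO and 62 FPKM in control DMSO. GFAP and EFTUD2 are on the opposite strand, and their part in the CCDC103 values was not tested. DCST2, at the DMSO edge of the rule, had 0.438 and 0.406 FPKM in FDX1-OE ES, 0.316 and 0.202 FPKM in control ES, and 0.0358 to 0.168 FPKM over the 4 DMSO libraries and also rose.
ERICH3, DNAH12 and SPAG6 were among the 6 members with the lowest control ES means and were not called. ERICH3, a ciliary protein, had 0.648 and 0.401 FPKM in FDX1-OE ES, 0.00938 and 0.0525 FPKM in control ES, and 0 to 0.00313 FPKM over the 4 DMSO libraries. DNAH12, a dynein heavy chain with 13123 bases of length, had 0.454 and 0.426 FPKM in FDX1-OE ES, 0.0341 and 0.0427 FPKM in control ES, and 0.00212 to 0.011 FPKM over the 4 DMSO libraries. SPAG6, of the central apparatus, had 0.596 and 0.569 FPKM in FDX1-OE ES, 0.059 and 0.0291 FPKM in control ES, and 0 to 0.0394 FPKM over the 4 DMSO libraries. These 3 stood at 5.9%, 8.73% and 7.55% of their FDX1-OE ES means in control ES.

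Of the 9 genes whose best known site is the liver, gut, pancreas, kidney, eye or muscle, 4 rose in control cells, BEST1, NEXN, MAFA and HRG. BEST1, a chloride channel of the retinal pigment epithelium, had 1.45 and 1.72 FPKM in FDX1-OE ES, 0.565 and 0.441 FPKM in control ES, 0.0537 and 0.0509 FPKM in FDX1-OE DMSO, and 0.0654 and 0.0949 FPKM in control DMSO. Its control ES libraries were above all DMSO libraries and below FDX1-OE ES, and BEST1 rose (log2(FPKM + 1) difference 0.48 ± 0.06 SE, limma adjusted p = 0.00754). For BEST1, limma fits without 1 library gave adjusted p of 0.0176 to 0.0499. BEST1 shares 14.2% of its exon bases with FTH1 on the opposite strand, and FTH1, ferritin heavy chain, averaged 801 FPKM in FDX1-OE ES, 545 FPKM in control ES, 368 FPKM in FDX1-OE DMSO and 363 FPKM in control DMSO. No source used here says whether the counting used strand. The part of FTH1 reads in the BEST1 values was not tested.
NEXN, the muscle actin-binding protein nexilin, had 1.25 and 1.27 FPKM in FDX1-OE ES, 0.242 and 0.174 FPKM in control ES, and 0.0709 to 0.147 FPKM over the 4 DMSO libraries, and rose in control cells (log2(FPKM + 1) difference 0.17 ± 0.03 SE, limma adjusted p = 0.0236). For NEXN, limma fits without 1 library gave adjusted p of 0.0298 to 0.106. MAFA, a transcription factor of pancreatic beta cells, had 1.37 and 1.1 FPKM in FDX1-OE ES, 0.28 and 0.199 FPKM in control ES, and 0 to 0.056 FPKM over the 4 DMSO libraries. HRG, a histidine-rich plasma glycoprotein made by the liver, had 0.486 and 0.564 FPKM in FDX1-OE ES, 0.178 and 0.176 FPKM in control ES, and 0.0141 to 0.0693 FPKM over the 4 DMSO libraries. In MAFA and HRG both control ES libraries lay above all DMSO libraries.
MEP1B, the beta subunit of the metalloprotease meprin of gut and kidney brush borders, had 1.93 and 1.41 FPKM in FDX1-OE ES, 0.312 and 0.18 FPKM in control ES, 0.0742 and 0.013 FPKM in FDX1-OE DMSO, and 0.0125 and 0.0121 FPKM in control DMSO. Its control ES libraries lay above all DMSO libraries, but the difference did not pass the test (log2(FPKM + 1) difference 0.30 ± 0.10 SE, limma adjusted p = 0.0958). HPD, an enzyme of tyrosine breakdown in the liver, had 0.519 and 0.951 FPKM in FDX1-OE ES, 0.277 and 0.259 FPKM in control ES, and 0.0144 to 0.0154 FPKM over the 4 DMSO libraries, and FNDC5, the precursor of irisin, had 0.984 and 0.534 FPKM in FDX1-OE ES, 0.153 and 0.182 FPKM in control ES, and 0.00954 to 0.0389 FPKM over the 4 DMSO libraries; neither was called. ATP6V1G3, a proton pump subunit of the kidney, had 0.94 and 1.56 FPKM in FDX1-OE ES, 0.532 and 0.131 FPKM in control ES, and 0 to 0.124 FPKM over the 4 DMSO libraries, the lower control ES library being just above DMSO. PRSS2, anionic trypsinogen of the pancreas, had 1.15 and 0.8 FPKM in FDX1-OE ES, 0 and 0.0693 FPKM in control ES, 0 FPKM in both libraries of FDX1-OE DMSO, and 0.0338 and 0.0327 FPKM in control DMSO. Control ES stood at 3.55% of the FDX1-OE ES mean in PRSS2, the lowest share of the 73 genes, with 1 library at 0 and 1 above all DMSO libraries. PRSS2 is a near-copy of PRSS1 and PRSS3, so its reads may be split between copies and its level is uncertain. PRSS1 had 0.114 and 0.207 FPKM in FDX1-OE ES and 0 FPKM in all other libraries.

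**Figure D4:**
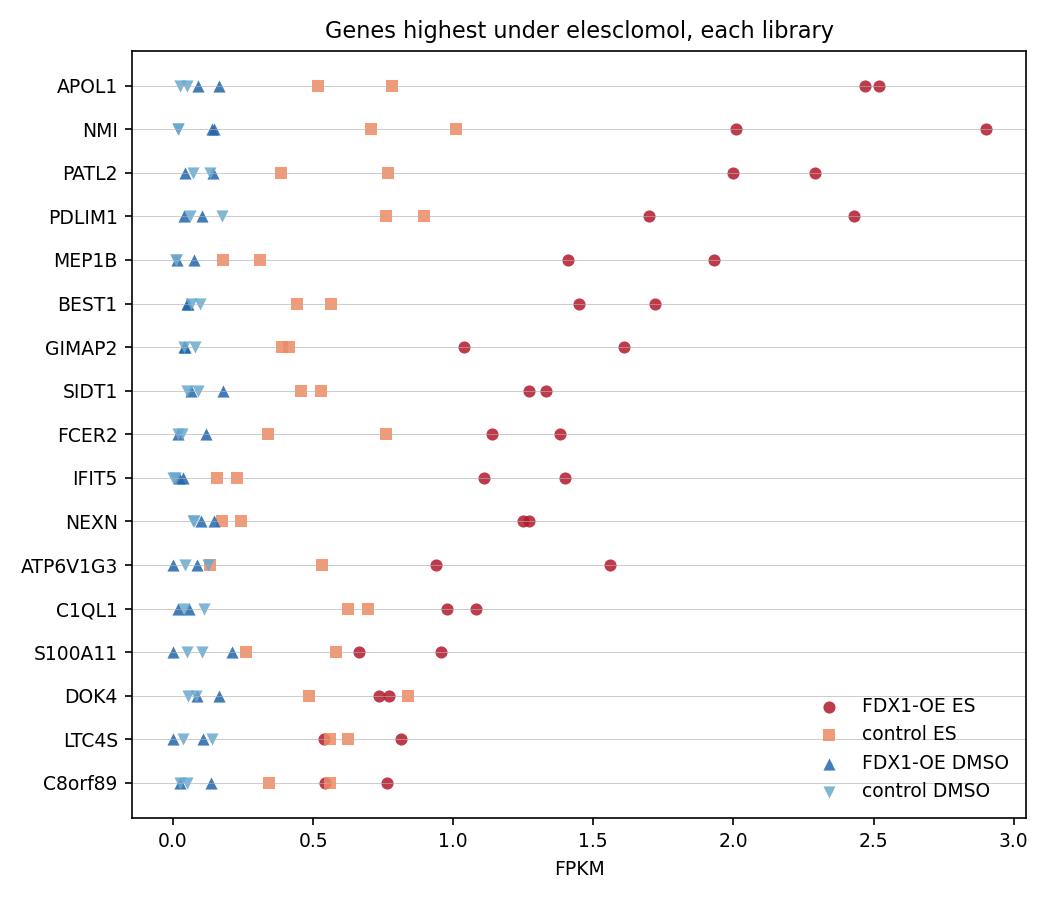
FPKM in each library of the members that are among the 12 with the highest mean in FDX1-OE ES or the 12 with the highest mean in control ES, ordered by FDX1-OE ES mean, on a linear axis. Red circles (FDX1-OE ES) lie to the right of orange squares (control ES) except in DOK4, LTC4S and C8orf89, where they overlap, and the DMSO triangles stay at or below 0.212 FPKM.

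Of the 8 genes of adhesion, cytoskeleton and epithelium 4 rose in control cells, among them PDLIM1, BAIAP2L1 and BCAM. PDLIM1, a PDZ and LIM domain protein of actin fibres, had 1.7 and 2.43 FPKM in FDX1-OE ES, 0.895 and 0.76 FPKM in control ES, 0.0396 and 0.104 FPKM in FDX1-OE DMSO, and 0.0602 and 0.175 FPKM in control DMSO. The control ES libraries were above all DMSO libraries and below FDX1-OE ES, and PDLIM1 rose (log2(FPKM + 1) difference 0.71 ± 0.12 SE, limma adjusted p = 0.0146). For PDLIM1, limma fits without 1 library gave adjusted p of 0.0193 to 0.0842.
BAIAP2L1, an adaptor between actin and membranes, had 0.726 and 0.786 FPKM in FDX1-OE ES, 0.196 and 0.154 FPKM in control ES, and 0 to 0.115 FPKM over the 4 DMSO libraries, and shares 16.6% of its exon bases with BRI3 on the opposite strand, which averaged 30.4 FPKM in FDX1-OE ES, 26.7 FPKM in control ES, 21.1 FPKM in FDX1-OE DMSO and 20.7 FPKM in control DMSO. The part of BRI3 reads in it was not tested. BCAM, a laminin receptor, had 0.41 and 0.439 FPKM in FDX1-OE ES, 0.182 and 0.18 FPKM in control ES, and 0 to 0.0909 FPKM over the 4 DMSO libraries.
S100A11, a calcium-binding protein, had 0.664 and 0.957 FPKM in FDX1-OE ES, 0.583 and 0.262 FPKM in control ES, and 0 to 0.212 FPKM over the 4 DMSO libraries, and is the shortest member at 563 bases. It was not called (log2(FPKM + 1) difference 0.39 ± 0.15 SE, limma adjusted p = 0.124), and its control ES libraries lay far apart. ESRP1, a splicing regulator of epithelia, had 0.41 and 0.411 FPKM in FDX1-OE ES, 0.144 and 0.0225 FPKM in control ES, and 0.00709 to 0.0439 FPKM over the 4 DMSO libraries, where 1 control ES library was within the DMSO range. CAPN2, the catalytic subunit of m-calpain, had 0.511 and 0.882 FPKM in FDX1-OE ES, 0.116 and 0.131 FPKM in control ES, and 0.00788 to 0.0232 FPKM over the 4 DMSO libraries, above DMSO but not called, and PLEKHG6 had control ES levels of 0.0463 and 0.156 FPKM that overlapped DMSO.

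Signalling, metabolism and transport gave 11 members, of which DOK4, SIDT1, OSGIN1, SMPD3, MAML2 and ETV6 rose in control cells. DOK4, a docking protein of receptor tyrosine kinases, had 0.735 and 0.771 FPKM in FDX1-OE ES, 0.84 and 0.486 FPKM in control ES, 0.165 and 0.0871 FPKM in FDX1-OE DMSO, and 0.0839 and 0.0541 FPKM in control DMSO. Its FDX1-OE ES libraries lay between its control ES libraries, its control mean was 88.1% of the FDX1-OE ES mean, the highest share of the 73 genes, and it rose (log2(FPKM + 1) difference 0.63 ± 0.10 SE, limma adjusted p = 0.0119). For DOK4, limma fits without 1 library gave adjusted p of 0.0126 to 0.0683. OSGIN1, a gene induced by oxidative stress, had 1.03 and 0.693 FPKM in FDX1-OE ES, 0.497 and 0.307 FPKM in control ES, 0.207 and 0.0934 FPKM in FDX1-OE DMSO, and 0.03 and 0.058 FPKM in control DMSO. It rose (log2(FPKM + 1) difference 0.42 ± 0.11 SE, limma adjusted p = 0.0457) but lost the call in each of the fits without 1 library (0.0527 to 0.193). It was the single member from the metal and oxidative stress list. SMPD3, a neutral sphingomyelinase, had 0.87 and 0.715 FPKM in FDX1-OE ES, 0.286 and 0.241 FPKM in control ES, and 0.0243 to 0.0674 FPKM over the 4 DMSO libraries. MAML2, a coactivator of Notch, had 0.477 and 0.539 FPKM in FDX1-OE ES, 0.367 and 0.22 FPKM in control ES, and 0.052 to 0.142 FPKM over the 4 DMSO libraries.
ETV6, an ETS repressor of blood cells, had 0.431 and 0.466 FPKM in FDX1-OE ES, 0.179 and 0.21 FPKM in control ES, and 0.0587 to 0.109 FPKM over the 4 DMSO libraries, and its neighbour on chromosome 12, BCL2L14 of the BCL2 family, had 1.09 and 1.05 FPKM in FDX1-OE ES, 0.0913 and 0.0301 FPKM in control ES, and 0 to 0.0483 FPKM over the 4 DMSO libraries. ETV6 rose in control cells (log2(FPKM + 1) difference 0.12 ± 0.03 SE, limma adjusted p = 0.0317). For ETV6, limma fits without 1 library gave adjusted p of 0.0314 to 0.129. BCL2L14 did not pass the test (log2(FPKM + 1) difference 0.08 ± 0.04 SE, limma adjusted p = 0.189) and stood at 5.68% of its FDX1-OE ES mean. IGFBP4, a binding protein of insulin-like growth factors, had 0.874 and 0.694 FPKM in FDX1-OE ES, 0.0541 and 0.0401 FPKM in control ES, 0.18 and 0.149 FPKM in FDX1-OE DMSO, and 0 and 0.0506 FPKM in control DMSO. In IGFBP4 the control ES level was below that of FDX1-OE DMSO, and it was not called (log2(FPKM + 1) difference 0.03 ± 0.05 SE, limma adjusted p = 0.763). INPP1, a phosphatase of inositol phosphates, had 0.264 and 0.0995 FPKM in control ES, SLC12A8, a solute carrier, 0.18 and 0.16 FPKM, and SPNS2, the exporter of sphingosine 1-phosphate, 0.374 and 0.252 FPKM. Those 3 lay above all DMSO libraries and were not called.

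Of the 9 less studied or other genes PATL2, LYRM9, CRACDL and C8orf89 rose in control cells. C8orf89 had 0.542 and 0.763 FPKM in FDX1-OE ES, 0.562 and 0.344 FPKM in control ES, and 0.0255 to 0.134 FPKM over the 4 DMSO libraries, with overlapping ES groups (log2(FPKM + 1) difference 0.48 ± 0.10 SE, limma adjusted p = 0.0243). For C8orf89, limma fits without 1 library gave adjusted p of 0.0402 to 0.117. LYRM9 had 0.679 and 0.616 FPKM in FDX1-OE ES, 0.36 and 0.254 FPKM in control ES, and 0.0496 to 0.0722 FPKM over the 4 DMSO libraries, and CRACDL had 1.06 and 0.948 FPKM in FDX1-OE ES, 0.268 and 0.295 FPKM in control ES, and 0.0133 to 0.0887 FPKM over the 4 DMSO libraries. For both, the control ES libraries lay above all DMSO libraries. Not called were the J-domain protein DNAJC5B, NHLRC4, the F-box protein FBXO39, the endoplasmic reticulum protein TMCC3 and C16orf74, with control ES levels between 0.0323 and 0.527 FPKM. Among these, TMCC3 and C16orf74 overlapped DMSO in 1 library, and NHLRC4 shares 8.22% of its exon bases with PIGQ on the same strand, which averaged 17.2 FPKM in FDX1-OE ES, 15.8 FPKM in control ES and 11.1 FPKM in each DMSO group. The part of PIGQ reads in the NHLRC4 values was not tested.

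FDX1 overexpression alone, in DMSO, was compared as a description, since the rule capped all 4 libraries. The rule also chose genes that were high in FDX1-OE cells under ES, which can favour genes higher in these cells under DMSO. Both FDX1-OE DMSO libraries lay above both control DMSO libraries for 24 of the 73 genes and below them for 7. Over all genes 15.5% were above and 15.1% below. Of the other near-silent genes 8.69% were above and 7.81% below, but many of those were at 0 in several libraries and could not be apart. Among the 24 were APOL1, NMI, IFIT5, GBP4, HERC6 and TNFSF13B of the interferon-linked class, while DDX60, PARP12 and TLR7 of that class were not. NMI had 8 reads in each FDX1-OE DMSO library and 1 read in each control DMSO library, so these differences rest on very few reads.

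By position the genes were scattered. Of the 73, 72 could be placed, on 18 chromosomes, with 10 on chromosome 1, and 2 pairs, ETV6 with BCL2L14 among them, were direct neighbours among protein-coding genes. Exons of another listed protein-coding gene overlapped 10 of the members. Without these 10 genes, 29 of 63 rose in control cells, 6 reached 0.4 FPKM in both control ES libraries, and the median control ES level was 0.189 FPKM.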

How the data were processed

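RNA of 8 SUDHL-4 libraries was sequenced. The submitters' processing notes list hg19, HISAT2, HTSeq and R (version 3.2.0), without their roles. The deposited values are FPKM, made by the authors, for 15597 genes. The file headers name no unit, so it was read from the values: they were whole multiples of the value of 1 read for 100% of the genes (tolerance 0.02 read, 0.04 in a second pass), which gave read numbers and library totals of 33435438 to 35883528 reads. A gene seen in a single library always fits as 1 read, and genes that failed at first were tried again over many lengths. The 100% is therefore no check for sparse genes, whose read numbers are uncertain. Precision at low levels is set by these reads, and counts cover counting error only.

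ES against DMSO in control cells was tested on log2(FPKM + 1) by limma (version 3.58.1, R version 4.3.3), with 4 group means over 8 libraries, no filter on low values, a mean trend (4 residual and 1.699 prior degrees of freedom), Benjamini-Hochberg adjustment over all genes and a threshold of 0.05, two-sided. The pseudocount of 1 FPKM understates the change of low genes. The steps were tested on simulated data. No p is given for contrasts with FDX1-OE ES, which chose the members. Genes were named where they were among the 12 highest in either ES group, the 6 lowest in control ES, the first 4 of a list or the 3 nearest a limit on each side, and the rest appear with their class. Members, gene lists and tests were chosen with earlier results of these data known, and the 8 classes after the values were seen. Fits without 1 library assume that the lone library of that group varies like those of the other groups. Alternatives changed the pseudocount, filter, scaling, model, libraries and limits. Exon overlaps came from GENCODE v29 on GRCh38, neighbours and promoter windows from RefSeq tables (GRCh38.p14), used for names, relations and sequence only. The values of 1 member are not reported here.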

Additional observations from a re-analysis of the deposited data

How the results depend on the processing

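The count of members that rose in control cells was 35. It became 8 (of 15 tested) with a filter of at least 1 FPKM in at least 2 libraries and 0 in a fit of the 4 control libraries alone, which has fewer samples to estimate the spread. It was 44 and 39 with pseudocounts of 0.1 and 0.5 FPKM, 30 with a filter of at least 0.4 FPKM, 34 with median-of-ratios scaling, 47 with voom on recovered reads, and 31 without the mean trend. The 0.4 FPKM filter narrowed the gap to the background, with 41.1% of members and 24.3% of all genes higher, against 47.9% and 13.7% without it. The share of all genes was 25.5% with the 1 FPKM filter, 10.7% with median-of-ratios scaling, 15.9% with voom, and 13.9% to 14.3% with the other pseudocounts and without the trend. With 1 library left out, the count of members fell, as described above. Replicate numbers did not pair the samples: deviations of same-numbered libraries correlated between -0.21 and 0.22 over 9087 genes, and the fit with the replicate block called 32. The count of members at 0.4 FPKM in both control ES libraries was 8. It was 0 with a DMSO limit of 0.05 FPKM (32 members), 39 with a limit of 0.2 FPKM (168 members), 5 with an FDX1-OE ES limit of 1 FPKM (15 members), 1 with every DMSO library below 0.1 FPKM (32 members), and 11 to 15 with 1 control ES library alone. The median control ES level of members was 0.195 FPKM, and under the same alternatives 0.149, 0.305, 0.401, 0.15, and 0.189 to 0.235 FPKM. The limits alter which genes are members, so these values describe other sets. The PRSS2 difference in control cells turned to -0.03 with a pseudocount of 0.1, -0.00057 with median-of-ratios scaling, -0.36 with voom and -0.05 without control ES 2. The IGFBP4 difference turned to -0.0048 without control DMSO 1 (up to 0.07 without control DMSO 2) and that of ESRP1 to -0.004 without control ES 1 (up to 0.16 without control ES 2). None of these 3 genes was called, and the cause was not tested. All 18 called genes among 33 named lost the call in at least 1 alternative. The fit of the 4 control libraries alone fixed that outcome, since it called 0 genes of all. Of the uncalled named genes 10 gained a call in at least 1 alternative. The planned quasi-likelihood count test on recovered reads was not run, because the deposited unit is FPKM. Restriction to members with no exon overlap was chosen after seeing the data.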

Other observations

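These genes were chosen after their values were seen and are no members. GDF15, a stress-induced cytokine and the single other near-silent gene at 0.4 FPKM in both control ES libraries, had 1.27 and 0.0825 FPKM in FDX1-OE ES, 1.15 and 1.34 FPKM in control ES, 0.0165 and 0.0174 FPKM in FDX1-OE DMSO, and 0 and 0.0324 FPKM in control DMSO. It failed the rule through FDX1-OE ES 2 alone. PTGS2, the inducible cyclooxygenase, showed the same split between libraries, with 63 and 1 reads in FDX1-OE ES, 54 and 61 reads in control ES, 1 and 0 reads in FDX1-OE DMSO, and 0 and 2 reads in control DMSO. The chemokine gene CXCL1 had 22 and 2 reads in FDX1-OE ES, 15 reads in each control ES library and 1 read in each DMSO library. CXCL8, which passed the limits but not the symbol rule, had 1.926 and 0.5871 FPKM in FDX1-OE ES and 2.25 and 1.69 FPKM in control ES. The FDX1-OE ES libraries thus differed from each other in these 4 genes, while the summed levels of the 73 members in them were 62.7 and 62.6 FPKM. No test was made of this difference.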
